A study of Bos taurus with 12 samples.

Results

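The liver enzymes that dispose of amino acid nitrogen and break down amino acid carbon were examined in dairy cows 1 week after calving. The set was a named list of 49 genes, taken by symbol and with no cutoff on a measured value, though earlier results of these data were known. It held the 8 genes of the urea cycle, and the enzymes of glutamine and glutamate, phenylalanine and tyrosine, tryptophan, histidine, serine, glycine and the sulfur amino acids, proline and ornithine, and the branched-chain amino acids and lysine. A gene was measured where a transcript of the array carried its symbol and no other, and 47 of the 49 were, each on 1 transcript, among 26773 transcripts in all. The glutamine synthetase gene GLUL shared its transcript with another symbol, and no transcript was matched to MCCC2, so neither was analysed here.

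The 12 livers were biopsies from Holstein cows. Of these, 6 cows formed the control group, whose ration held 1% wheat bran, and 6 formed the GSGME group, whose ration held 1% of dry matter as grape seed and grape marc meal extract in place of the bran. Both rations were fed from 3 weeks before the expected calving date, and all biopsies were taken around day 7 after calving. Each group mixed first-calf and older cows, and the labels do not say which cow was which. Each cow's RNA went on 1 Affymetrix Bovine Gene 1.0 ST array, which reads a transcript with a set of probes as a brightness, given here as a log2 signal. A difference of 1 on this scale is a doubling. The number of cows limits the precision. The comparison asked whether GSGME changed these transcripts.

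Amino acids that are not built into protein lose their amino group, mostly by transfer to glutamate, and the hepatocyte passes that nitrogen as ammonia and aspartate into the urea cycle. The cycle begins in the mitochondrion with CPS1 and OTC and ends in the cytosol with ASS1, ASL and ARG1. The remaining carbon skeletons enter gluconeogenesis or ketone body formation, a demand that is high in ruminants, which absorb little glucose, and highest around the start of lactation when body protein is drawn on. The urea cycle enzymes, GLS2, HAL and SDS are best known from hepatocytes near the portal vein, as described in rodents, whereas OAT and GLUL belong to those around the central vein.

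The tissue matched its label. All 15 hepatocyte markers were clear of the array's background, here the 95th percentile of 717 olfactory receptor transcripts (5.62), and their mean per cow lay between 12.45 and 12.57 in all 12 livers. Each liver is named by its label. The arrays correlated with each other at 0.968 to 0.990 over all transcripts, and some livers stood apart. Liver_control_825 alone held the highest value of 12 for 21.8% of all transcripts, against 3.82% to 10.4% in the other cows. In Liver_GSGME_821 the osteopontin transcript SPP1 stood at 9.82, against 4.02 to 5.28 in the other cows, and the collagen transcript COL3A1 at 9.01 against 6.54 to 7.38. In Liver_GSGME_741 the red cell transcript HBB stood at 8.11, against 5.13 to 6.36 in the other cows. Of the 47 amino acid enzymes, 46 were clear of background in both groups, BCAT2 only just (GSGME mean 5.63), and GPT was not.

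None of the 47 transcripts passed the criterion, a change of more than 1.3-fold with an unadjusted p under 0.05 in limma, in either direction. Of all transcripts 1.83% passed it, so the count of 0 was close to that background. Without the fold threshold, 2 of the 47 had an unadjusted p under 0.05, HPD as higher and GPT as lower, against 5.85% of all transcripts. The t-test of the study's methods also gave 2 genes at that p. After Benjamini-Hochberg adjustment over all transcripts none of the 26773 passed, and the lowest adjusted p among the 47 was 0.83 (limma). For single genes, the exact permutation test of the 6 against 6 cows (two-sided, unadjusted, chosen after seeing the data) is given beside the difference. The groups overlapped or touched in all 47 genes (0.217% of all transcripts had groups that did not). The GSGME mean was the higher in 25 genes and the lower in 22, with a median difference of 0.01 log2 units, against -0.02 over all transcripts. In a biopsy, fewer cells of a type and less RNA per cell cannot be told apart.

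How large a change could have been missed differed between the genes. The 95% interval of the difference lay inside 1.3-fold in both directions for 30 of the 47 genes, against 59.6% of all transcripts. It lay inside 1.5-fold for 39 and inside 2-fold for 44. The genes with the widest intervals were SDS, KMO and OAT.

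**Figure D1:**
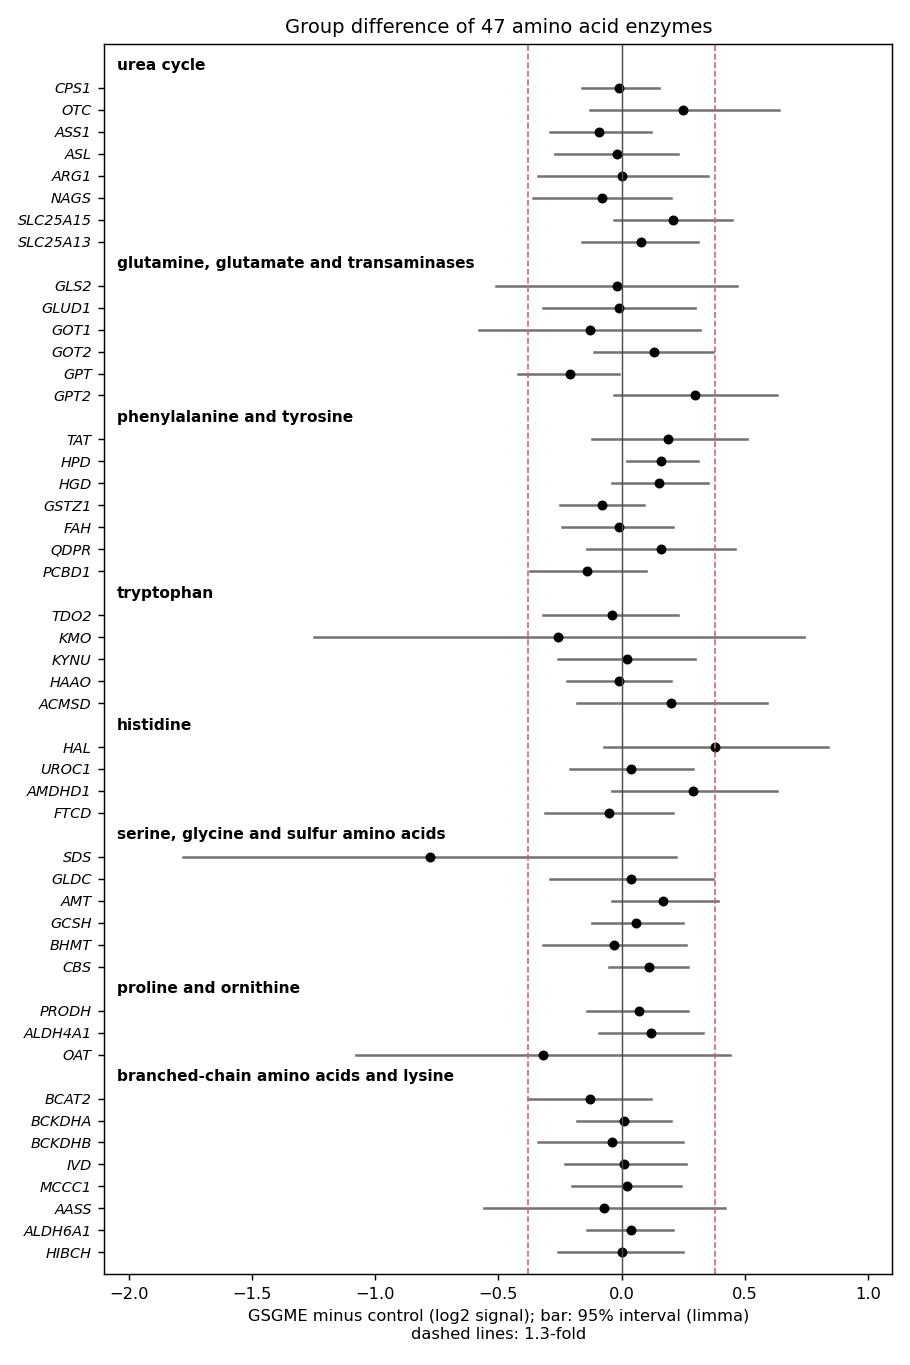
Difference between the GSGME and the control mean (log2 signal, horizontal axis) for 47 genes grouped by role, with the 95% interval of limma as a bar and dashed lines at 1.3-fold. SDS had the lowest difference (-0.78) and HAL the highest (0.38), and only the bars of HPD and GPT leave out 0.

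None of the 8 urea cycle genes passed the criterion, 4 had a higher and 4 a lower mean with GSGME, and their median difference was 0.00. CPS1, the mitochondrial enzyme that fixes ammonia and sets the entry to the cycle, ranged from 12.78 to 13.02 in control cows (median 12.88) and from 12.78 to 13.05 in GSGME cows (median 12.86). Its ranges were nearly the same, and over all 12 cows it varied 1.21-fold. The difference was -0.01 (95% interval -0.16 to 0.15; exact permutation p = 0.942), so that a fall of more than 1.12-fold or a rise of more than 1.11-fold lay outside the interval.

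OTC, which joins carbamoyl phosphate to ornithine in the mitochondrion, ran from 9.78 over a median of 10.56 to 11.05 in control cows and from 10.57 over 10.80 to 10.85 in GSGME cows. The control range enclosed the GSGME range, with Liver_control_1150 (9.78) and Liver_control_1017 (10.18) lowest and Liver_control_1031 (11.05) highest. All 6 GSGME cows lay above the control mean, yet the difference of 0.25 (95% interval -0.13 to 0.64; exact permutation p = 0.249) did not pass the test. It fell to 0.11 without Liver_control_1150 and was 0.36 without Liver_control_1031.

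SLC25A15, the carrier that brings ornithine into the mitochondrion for OTC, had values of 9.65 to 10.18 in control cows (median 9.77) and of 9.96 to 10.21 in GSGME cows (median 10.07). The highest values of the groups lay close together, and 4 control cows lay below the lowest GSGME cow. Its difference of 0.21 (95% interval -0.03 to 0.45; exact permutation p = 0.0931) was the one of lowest p in the cycle in both tests. SLC25A13, the carrier that exports aspartate from the mitochondrion, differed by 0.08 (95% interval -0.16 to 0.31), and its range in control cows (9.74 to 10.33) enclosed that in GSGME cows (9.88 to 10.31).

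The cytosolic enzymes had nearly the same mean in both groups. ASS1, which joins citrulline and aspartate, ranged from 12.20 to 12.68 in control cows (median 12.44) and from 12.19 to 12.56 in GSGME cows (median 12.32), a difference of -0.09 (95% interval -0.29 to 0.12). ASL, which splits argininosuccinate to arginine and fumarate, ranged from 9.99 to 10.75 (median 10.35) and from 10.08 to 10.53 (median 10.36), a difference of -0.02 (95% interval -0.27 to 0.23). In both genes Liver_control_1150 was the highest of the 12 livers and the groups overlapped over most of their range.

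ARG1, the arginase that releases urea, ran from 10.11 (Liver_control_825) over a median of 10.45 to 11.23 (Liver_control_1150), against 10.43 to 10.73 with a median of 10.52 in GSGME cows. The means were 10.55 and 10.56, and the GSGME values lay inside the control range. NAGS, whose product N-acetylglutamate switches CPS1 on, had control values of 7.66 to 8.63 (median 8.22) and GSGME values of 7.99 to 8.24 (median 8.09). Its difference was -0.08 (95% interval -0.36 to 0.20), and Liver_control_825 was again lowest. Without that cow it was -0.19.

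**Figure D2:**
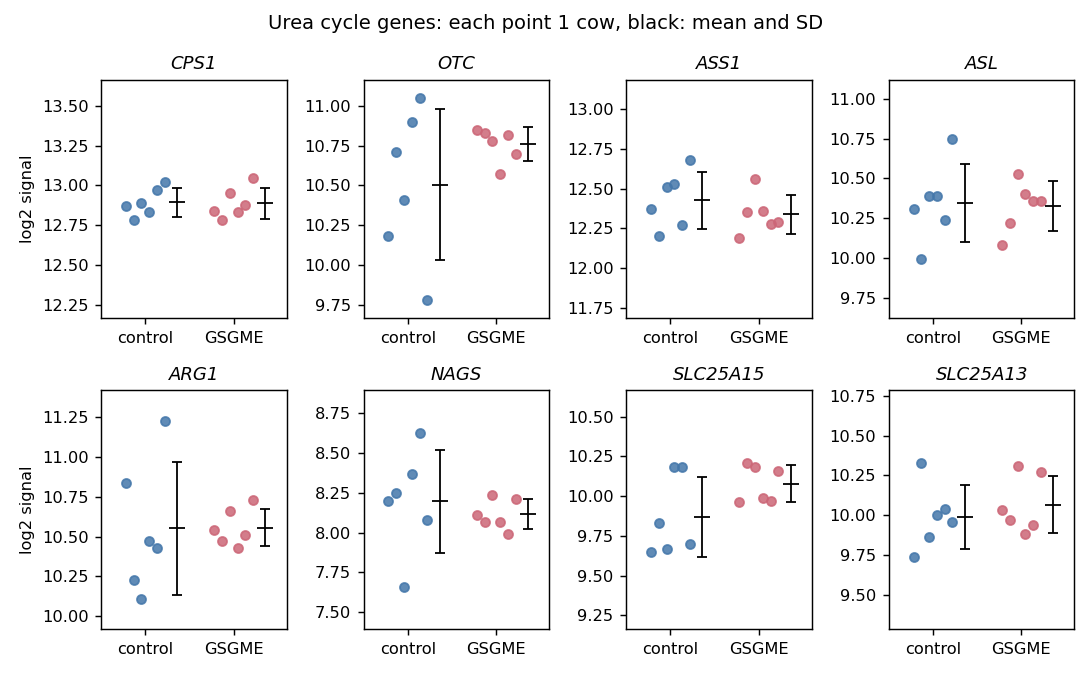
Log2 signal of the 8 urea cycle genes in each cow, with 1 point per cow, the control group (6 cows) in blue and the GSGME group (6 cows) in red, and the mean and SD in black. The axes start at different levels. OTC, ARG1 and NAGS show a wide control group around a narrow GSGME group.

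ASS1 and ASL, which act in sequence, rose and fell together over the 12 cows. Their Pearson r was 0.88 and Spearman's rho 0.86 (permutation p = 7.00e-05 and 7.70e-04, two-sided), and over the 7 pairs of enzymes compared in this way the adjusted values were 4.90e-04 and 0.00539. The correlation was 0.95 within the control and 0.81 within the GSGME cows, and 0.73 without the 2 cows whose ASS1 lay farthest from the median (Liver_control_1150 and Liver_GSGME_1047). Leaving out each cow in turn gave 0.80 to 0.91. ASS1 also rose and fell with UROC1, an enzyme of histidine breakdown, a pair chosen after its values were seen. That pair had an r of 0.78 (permutation p = 0.00249, adjusted 0.168 over all 1081 pairs) and the same rho of 0.86. No other of the 7 pairs passed adjustment. CPS1 and ARG1 had an r of 0.58 (permutation p = 0.0442, adjusted 0.155) that was 0.22 without the 2 cows farthest from the median of CPS1, and CPS1 and OTC had an r of -0.30 (permutation p = 0.353, adjusted 0.458). BCKDHA and BCKDHB, the 2 subunits of the first component of the branched-chain ketoacid dehydrogenase, had an r of -0.21 (permutation p = 0.515, adjusted 0.515). Since all transcripts come from the same biopsies and arrays, pairs of transcripts share what differs between biopsies and arrays.

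**Figure D3:**
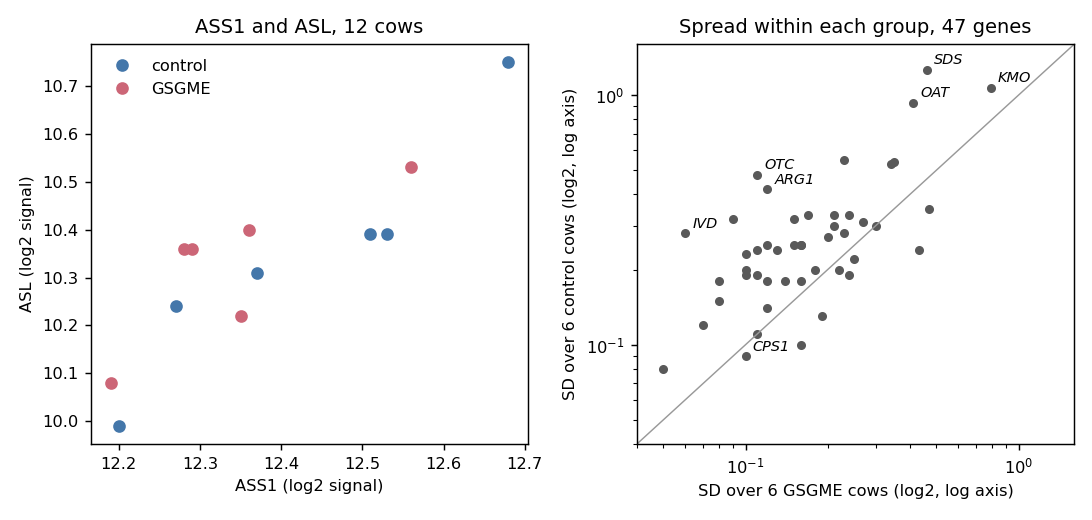
Left: log2 signal of ASL (vertical) against ASS1 (horizontal), 1 point per cow, control in blue and GSGME in red, with Liver_control_1150 at the upper right (r = 0.88). Right: SD over the 6 control cows against SD over the 6 GSGME cows for 47 genes on log axes, where 37 genes have the larger control SD (above the line, on which the SDs are equal).

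Among the enzymes of glutamine, glutamate and the transaminases, none of 6 passed the criterion. GPT2, the mitochondrial alanine aminotransferase, ranged from 6.63 to 7.50 in control cows (median 7.06) and from 6.96 to 7.68 in GSGME cows (median 7.34), and 5 of the 6 cows fed GSGME exceeded the control mean. Its difference of 0.30 (1.23-fold, 95% interval -0.03 to 0.63; exact permutation p = 0.104) did not pass, but passed without Liver_control_1150 (1.31-fold) and without Liver_GSGME_1124 (difference 0.38). GPT, the cytosolic form, had control values of 4.94 to 5.40 (median 5.14) and GSGME values of 4.85 to 5.10 (median 4.94), a fold of -1.16 (exact permutation p = 0.0498; adjusted p = 0.83, limma). All 6 GSGME cows were below the control mean, at a signal within the array's background.

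GLS2, the liver glutaminase that frees ammonia from glutamine, was spread widely within both groups. It ran from 8.85 (Liver_control_825) over a median of 9.59 to 10.39 (Liver_control_1031), and from 9.11 over 9.69 to 9.94 in GSGME cows. The ranges overlapped fully, the difference was -0.02 (95% interval -0.51 to 0.47; -0.17 without Liver_control_825), and the 12 livers spanned 2.91-fold. GLUD1 and GOT2, mitochondrial enzymes that release ammonia from glutamate and move its amino group to aspartate, differed by -0.01 and 0.13, and cytosolic GOT1 by -0.13. The last of these lay between -0.26 and -0.01 over the cows left out in turn, and GOT2 was at 0.05 without Liver_control_1150.

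In the route from phenylalanine and tyrosine to fumarate and acetoacetate, 1 of 7 genes had an unadjusted p under 0.05 and none passed the criterion. HPD, which turns the ketoacid of tyrosine into homogentisate, ranged from 11.98 to 12.18 in control cows (median 12.12) and from 12.18 to 12.33 in GSGME cows (median 12.26). The groups met at 12.18, and all 6 GSGME cows lay above the control mean. The difference was 0.16 (1.12-fold, 95% interval 0.02 to 0.31; adjusted p = 0.83, limma; exact permutation p = 0.00433), below the 1.3-fold threshold at the upper end of its interval too (1.24-fold). HGD, the next enzyme, stood at 11.39 to 11.82 in control cows (median 11.72) and at 11.67 to 11.88 in GSGME cows (median 11.82). Liver_control_1017 (11.39) and Liver_control_1150 (11.46) were its lowest, the other cows overlapped, and the difference was 0.15 (exact permutation p = 0.102). TAT, the aminotransferase that starts tyrosine breakdown, differed by 0.19 (exact permutation p = 0.264; 0.08 without Liver_control_825), while GSTZ1 and FAH, which complete the route, differed by -0.08 and -0.01. QDPR and PCBD1, which restore the tetrahydrobiopterin that phenylalanine hydroxylase uses, differed by 0.16 and -0.14, and by 0.07 without Liver_control_1017 and -0.07 without Liver_control_1031.

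On the tryptophan route to kynurenine and NAD, none of 5 genes passed. TDO2, which opens the indole ring, differed by -0.04, KYNU, which cleaves alanine from the kynurenines, by 0.02 and HAAO, which makes the precursor of quinolinate, by -0.01. KMO, which hydroxylates kynurenine, varied far more between cows. Its values were 7.83 to 10.57 in control cows (median 9.29) and 8.09 to 10.16 in GSGME cows (median 9.00), a 6.68-fold range over the 12 livers. High values occurred in both groups, in Liver_control_819 (10.57) and Liver_control_1031 (10.56) and in Liver_GSGME_1143 (10.16) and Liver_GSGME_1047 (9.98), and so did low ones, in Liver_control_1041 (7.83) and Liver_GSGME_741 (8.09). The difference of -0.26 had an interval of -1.25 to 0.74 (exact permutation p = 0.643). It ran from -0.57 without Liver_control_1041 to -0.02 without Liver_control_819 or Liver_control_1031. ACMSD, which diverts the route away from NAD, differed by 0.20 (exact permutation p = 0.359). Its control values were 8.93 to 9.51 (median 9.21) and its GSGME values 9.05 to 10.18 (median 9.28), with Liver_GSGME_1001 alone above 9.61, and the difference without that cow was 0.05.

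The histidine enzymes included the highest difference of the set. HAL, which removes the amino group of histidine, ranged from 8.65 to 10.26 in control cows (median 9.43) and from 9.56 to 10.16 in GSGME cows (median 9.83). The highest and the lowest cow were both controls (Liver_control_1017 and Liver_control_825), and all 6 GSGME cows lay above the control mean. The difference of 0.38 (95% interval -0.07 to 0.84; exact permutation p = 0.149) reached the fold threshold and missed that on p. Without Liver_control_1017 it was 1.46-fold (adjusted p = 0.747, limma) and past the criterion, and without Liver_control_825, the array that stood apart, it was 0.22. AMDHD1, which opens the imidazolone ring later in the route, had control values of 9.16 to 9.93 (median 9.72) and GSGME values of 9.68 to 10.46 (median 9.87). The groups overlapped in part, with 3 GSGME cows above the highest control cow and 3 control cows below the lowest GSGME cow, and its difference was 0.29 (exact permutation p = 0.130). It was 0.19 without Liver_control_825 and also without Liver_GSGME_1001. UROC1, the step between them, and FTCD, the last step, differed by 0.04 and -0.05.

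SDS, the serine dehydratase that turns serine into pyruvate, had the lowest difference of the set and a spread carried by few cows. Its 6 control values were 9.27 (Liver_control_1017), 9.17 (Liver_control_1150), 7.45 (Liver_control_1031), 6.75 (Liver_control_825), 6.73 (Liver_control_1041) and 6.49 (Liver_control_819). In GSGME cows the values were 7.78 (Liver_GSGME_821) and, in the others, 6.60 to 6.83. Thus 2 control livers stood above all others, while the other control values overlapped those of the GSGME cows. The difference was -0.78 (-1.72-fold, 95% interval -1.78 to 0.22; exact permutation p = 0.260). It was -0.45 without Liver_control_1017 and -0.47 without Liver_control_1150. Without Liver_control_819, the lowest control, it was -1.01 (-2.01-fold; adjusted p = 0.497, limma) and past the criterion. Without Liver_GSGME_821, which stood apart in SPP1 and COL3A1, it was -0.96 and did not pass.

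The other genes of serine, glycine and sulfur amino acids moved little. AMT, a subunit of the glycine cleavage system, ranged from 7.25 to 7.55 in control cows (median 7.39) and from 7.32 to 7.81 in GSGME cows (median 7.62), overlapping groups with a difference of 0.17 (exact permutation p = 0.0909). GLDC and GCSH, further subunits of that system, differed by 0.04 and 0.06, and BHMT, which methylates homocysteine, by -0.03. CBS, which commits homocysteine to cysteine, had control values of 8.81 to 9.13 (median 9.03) and GSGME values of 9.04 to 9.24 (median 9.12), a difference of 0.11 (exact permutation p = 0.0736) that was 0.07 without Liver_control_819.

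In proline and ornithine breakdown, OAT, the ornithine aminotransferase, varied 6.59-fold over the 12 cows. Control values were 5.48 to 8.20 (median 6.24) and GSGME values 5.62 to 6.63 (median 6.32). Liver_control_1017 (8.20) stood above all others, followed by Liver_control_1150 (6.89), and Liver_control_825 (5.48) was lowest. The difference of -0.32 (95% interval -1.08 to 0.44; exact permutation p = 0.513) became 0.01 without Liver_control_1017, -0.53 without Liver_control_825 and -0.20 without Liver_GSGME_1124. PRODH, which oxidises proline, differed by 0.07. ALDH4A1, which completes the conversion to glutamate, differed by 0.12 (exact permutation p = 0.212), with control cows at 8.42 to 8.93 (median 8.65) and GSGME cows at 8.69 to 8.97 (median 8.77). The difference of ALDH4A1 was 0.07 without Liver_control_1150, the lowest.

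The branched-chain and lysine enzymes differed least. None of 8 passed, and the differences lay between -0.13 (BCAT2, the mitochondrial transaminase) and 0.04 (ALDH6A1, which acts late in valine breakdown after HIBCH, itself at 0.00). The GSGME mean of BCAT2 (5.63) lay just above the background line of 5.62. BCAT2 had control values of 5.52 to 6.21 (median 5.68) and GSGME values of 5.39 to 5.83 (median 5.66), and Liver_control_1150 alone was above 5.88. The difference was -0.04 without that cow and -0.08 without Liver_GSGME_1001. The dehydrogenase subunits BCKDHA and BCKDHB differed by 0.01 and -0.04, IVD, the dehydrogenase of leucine breakdown, by 0.01, and MCCC1, the biotin-bearing subunit of a carboxylase of the same route, by 0.02. AASS, which begins lysine breakdown, was again highest in Liver_control_1017 (8.19) and Liver_control_1150 (8.08). Its other control values were 6.94 to 7.52 and its GSGME values 7.06 to 7.85, and the difference was -0.07 (95% interval -0.56 to 0.42).

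**Figure D4:**
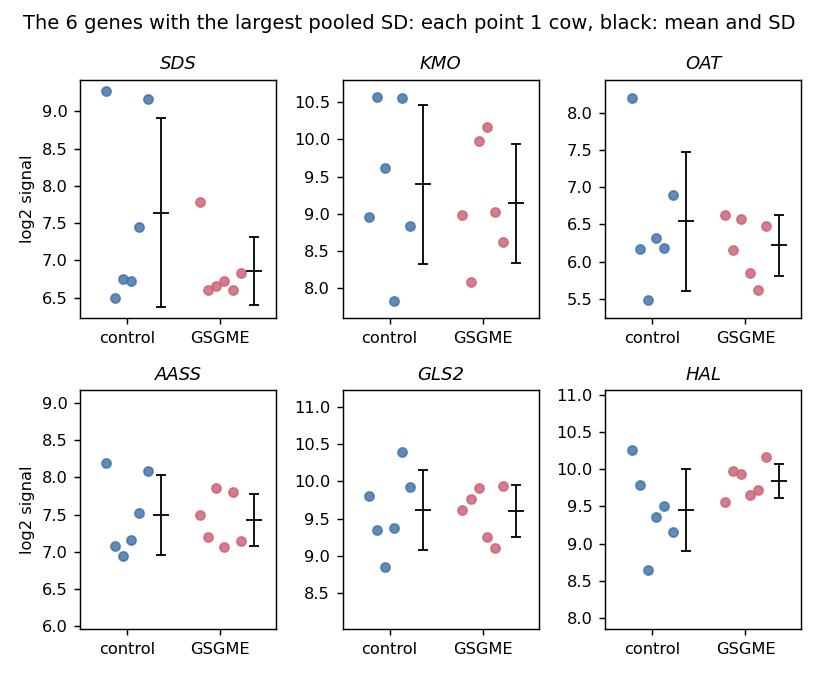
Log2 signal in each cow of the 6 genes with the largest pooled SD, with 1 point per cow, control (6 cows) in blue and GSGME (6 cows) in red, and the mean and SD in black. SDS, OAT and AASS were highest in Liver_control_1017, at 9.27, 8.20 and 8.19, while KMO was high and low in both groups.

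The cows of the control group differed more from each other than the GSGME cows did. The SD was larger in the control group for 37 of the 47 genes (78.7%), against 70.3% of all transcripts, and the median ratio of the control to the GSGME SD was 1.56, against 1.34. A larger control spread was thus found over the array as a whole too. The count was 33 without Liver_control_1150 and 37 without Liver_control_825, and lay between 33 and 41 over all 12 cows left out in turn. The ratio was 4.99 for IVD, 4.48 for OTC, 3.60 for ARG1 and 3.43 for NAGS, while ACMSD (0.55) and AMT (0.68) spread more in GSGME cows. Single cows moved these ratios. That of IVD was 1.99 without Liver_control_1031 and 7.20 without Liver_GSGME_1143, and that of OTC was 8.02 without Liver_GSGME_1143. The ratio was 2.22 for NAGS without Liver_control_825, 2.41 for ARG1 without Liver_control_1150 and 1.01 for ACMSD without Liver_GSGME_1001. In median pooled SD the genes (0.21) were like all transcripts (0.20). A pooled SD over 0.40, a cut that was not planned, was found in 7 of the 47 genes and in 8.64% of all transcripts. GOT1 (0.41) and HAL (0.42) were only just over it, and whether the shares differ was not tested.

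Liver_control_1150 was the liver most often at an extreme, counting values that 1 cow held alone. It held the highest of the 12 values in 8 genes, among them the cytosolic urea cycle enzymes ASS1, ASL and ARG1. It held the lowest value in 12 genes, among them OTC (9.78), GLUD1 (11.45), GOT2 (9.93), HPD (11.98) and IVD (10.04). Over all transcripts the same cow held 10.4% of the highest and 8.81% of the lowest values. When the genes were sorted by compartment, a grouping made after these values were seen, 9 of the 12 lowest and 2 of the 8 highest were mitochondrial enzymes, which made up 23 of the 47 genes. Such enzymes were also 6 of the 8 highest and 1 of the 2 lowest in Liver_control_1031. They were 1 of the 2 highest and 5 of the 9 lowest in Liver_control_825, and 3 of the 8 highest and 4 of the 7 lowest in Liver_control_1017. The same split was not made over all transcripts. Liver_control_825, whose array stood apart, was lowest in 9 genes, among them ARG1, NAGS, GLS2, TAT, HAL and OAT, and highest in 2, while it held 13.9% of the lowest and 21.8% of the highest values of all transcripts. Liver_control_1017 was highest in 8 genes, among them TDO2, HAL, SDS, OAT and AASS, and lowest in 7, against 9.62% of the highest and 8.80% of the lowest values of all transcripts. Liver_control_1031 was highest in 8 genes, among them OTC, NAGS, GLS2, GLUD1 and IVD, and lowest in 2, against 7.96% and 9.29%. In all, control cows held 65 of the 92 extreme values that were not tied (70.7%), and they held 63.5% of those of all transcripts.

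**Figure D5:**
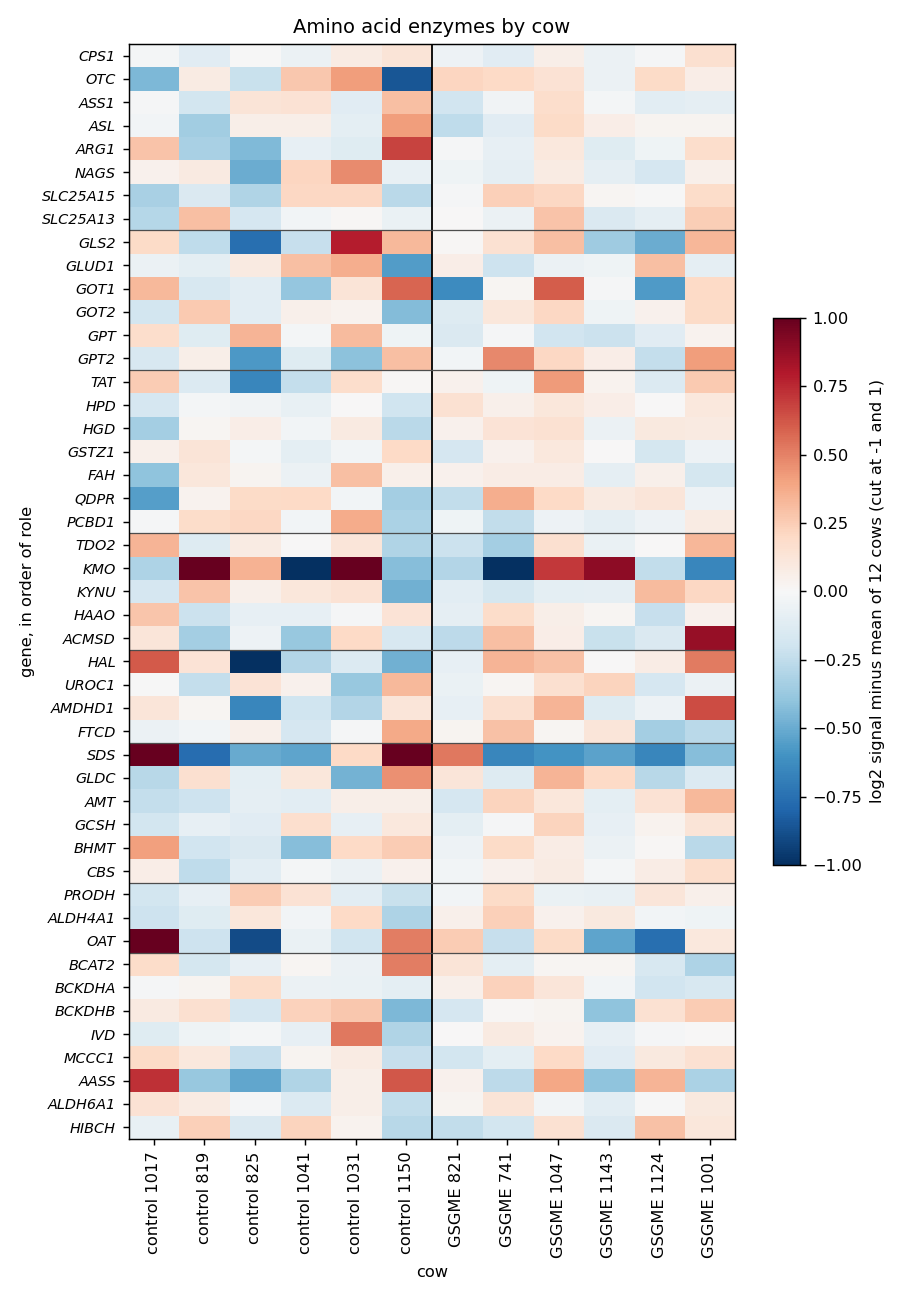
Log2 signal of 47 genes in each of 12 cows minus the gene's mean over the 12 cows (red above, blue below, cut at 1 log2 unit), with lines between roles and a black line between the groups of 6. Liver_control_1150 and Liver_control_825 held the lowest value of 12 and 9 genes.

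Further genes of the same routes were counted in the same fit. Of 14 other nitrogen and urea genes, 12 of phenylalanine, tyrosine and tryptophan, 18 of the branched-chain amino acids, 30 amino acid transporters and 18 transcription factors and receptors known to act on such enzymes, none passed the criterion. In the same order, 10, 12, 16, 21 and 18 of these were clear of background in both groups. Of 23 other genes of glycine, sulfur amino acid and choline oxidation, 1 passed, against 1.83% of all transcripts in either direction. This was DAO, the D-amino acid oxidase of peroxisomes, with control values of 7.20 to 7.95 (median 7.86) and GSGME values of 7.84 to 8.30 (median 8.07). Its groups overlapped at 7.84 to 7.95, and the difference was 0.41 (1.33-fold; adjusted p = 0.83, limma; exact permutation p = 0.0519). It was no longer past the criterion with array weights or without Liver_control_825 or Liver_control_1031 or Liver_GSGME_741, Liver_GSGME_1047 or Liver_GSGME_1143. KLF15, a factor known from mice to drive amino acid breakdown in the fasted liver, was at 7.43 to 7.66 in control cows (median 7.62) and at 7.29 to 7.49 in GSGME cows (median 7.44). Its groups overlapped at 7.43 to 7.49, and its fold of -1.12 (unadjusted p under 0.05 in limma; exact permutation p = 0.0130) did not reach the threshold. The transporters of lowest p were SLC6A12, which carries betaine (-1.28-fold; exact permutation p = 0.102), and SLC38A2, which carries small neutral amino acids (-1.28-fold; exact permutation p = 0.180).

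Markers of liver cells were set beside these values. The 13 measured periportal hepatocyte markers, 7 of which are among the 47 genes, had a mean per cow of 10.61 to 11.08 in control and 10.43 to 10.92 in GSGME cows. For the 14 pericentral markers, of which 1 (OAT) is among the 47 genes, these ranges were 8.62 to 9.14 and 8.76 to 9.07. None of either list passed the criterion. Of the 15 T, NK and B cell markers 2 passed the criterion as higher with GSGME, against 1.83% of all transcripts in either direction. They were the antibody-joining chain JCHAIN (1.58-fold; adjusted p = 0.83, limma; exact permutation p = 0.0519) and the T cell receptor component CD3D (1.35-fold; adjusted p = 0.83, limma; exact permutation p = 0.0779). CD3D was not clear of background, as its control mean of 5.39 lay below the line of 5.62. Of the 15 markers in this list, 10 were clear of background in both groups. The list's mean per cow was 6.08 to 6.22 in control and 6.16 to 6.70 in GSGME cows, and its part in the values above was not tested. None of the markers of macrophages (12), neutrophils (8), endothelium (12), connective tissue (11), bile ducts (7) or red cells (6) passed. In the same order, 12, 4, 12, 10, 4 and 2 of these were clear of background in both groups.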

How the data were processed

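Liver of 6 control and 6 GSGME cows was measured on 1 array per cow. The authors read cell intensities with the GeneChip Command Console and then applied RMA in Expression Console, which corrects background, normalizes across arrays and summarises probes. The version of neither program is stated in the sources used here. Each deposited value is a log2 signal with 2 decimals, and the log base was taken from their range and the RMA method. Since RMA scales all arrays to a common distribution, only changes relative to other transcripts can be seen. Groups and cow numbers came from the sample labels. No cow numbers pair the groups, and the labels give no batch.

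Transcripts were named from the platform annotation (18457 with 1 symbol, 688 with several, 7628 with none). Gene IDs of 46 of the 47 measured genes led to the same symbol in a RefSeq gene table, and UROC1 had no ID. The 47 genes, their roles, the further lists and the tests were chosen with earlier results of these data known. All 26773 transcripts were tested without a filter in R 4.3.3 with limma 3.58.1 (lmFit, eBayes, two-sided tests), and p-values were adjusted by Benjamini-Hochberg over all of them. The criterion was a change of more than 1.3-fold with an unadjusted p under 0.05. Decreases are written as negative folds (minus the control-to-GSGME ratio). The fit was tested on simulated data. There the criterion in limma found 20 of 50 changes set at 1.3-fold, 46 of 50 at 1.5-fold and 50 of 50 at 2-fold. It also called 357 of 26573 unchanged transcripts. Changes set at 1.3-fold lie on the fold cut itself, so many miss it whatever the number of cows. The changed transcripts were picked at random from all, so these counts need not hold for the most variable genes. Correlations used 100000 permutations (Python 3.11.15, numpy 2.4.6, scipy 1.17.1, pandas 2.3.3), and figures were drawn with matplotlib 3.10.9. Full values were given for the urea cycle genes, the 10 genes of lowest p, the 5 of largest pooled SD, the gene of lowest p of each role, and the 3 of lowest p of each further list as candidates for naming. Other values per cow (QDPR, IVD, GLUD1, GOT2, SPP1, COL3A1, HBB) were chosen after they were seen.

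The alternatives were the methods' unpaired t-test, a robust eBayes with a trend, restriction to transcripts above the median one, other fold thresholds or none, cyclic loess, weights for arrays, restriction to transcripts of 1 symbol, group medians, group means removed before correlation, and leaving out each cow in turn. The exact permutation test for single genes was added after seeing the data, and likewise the count of genes with the larger SD in control was set against cyclic loess and left-out cows, and left-out cows were applied to the genes without full values and to the SD ratios.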

Additional observations from a re-analysis of the deposited data

Results flagged for a closer look

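In 2 of the 94 groups of 6 cows (47 genes in 2 groups), 1 cow lay far from the others by Dixon's test. Chance alone flags about 1 in 20 groups. SDS, the serine dehydratase, stood at 7.78 in Liver_GSGME_821, while the other GSGME cows lay between 6.60 and 6.83. The same cow was high in SPP1 (9.82) and COL3A1 (9.01), and whether these go together was not tested. IVD, the isovaleryl-CoA dehydrogenase of leucine breakdown, stood at 10.87 in Liver_control_1031, while the other control cows lay between 10.04 and 10.32 and the GSGME cows between 10.26 and 10.43.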

How the results depend on the processing

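No paired analysis was possible because the cow numbers of the 2 groups differ. Of the 24 genes with full values, 16 kept the sign of their difference in all alternatives, and 5 passed the criterion in at least 1 of them. Without the fold threshold, 1 gene was higher (HPD) and 1 lower (GPT), and leaving out each cow in turn gave 0 to 1 higher (HAL, GPT2) and 0 to 1 lower (SDS). The sign of 8 genes changed. With array weights CPS1 was at 0.00, ARG1 at -0.03 and KMO at 0.03, and with cyclic loess ARG1 was at -0.03. Over the left-out cows the range was -0.04 to 0.02 for CPS1, -0.09 to 0.06 for ASL, -0.08 to 0.14 for ARG1, -0.19 to 0.00 for NAGS, -0.17 to 0.14 for GLS2, -0.53 to 0.01 for OAT, -0.57 to -0.02 for KMO and -0.18 to 0.07 for AASS. The correlation of CPS1 and ARG1 was 0.71 with cyclic loess (permutation, adjusted p = 0.0374, against 0.155 to 0.156 for the values as deposited and with group means removed, and 0.0749 to 0.459 over the left-out cows). That of CPS1 and OTC lay between -0.45 and 0.08, the latter without Liver_control_1150.

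Over all transcripts, 322 higher and 167 lower calls became 142 and 61 among those above the median transcript, and 202 and 71 among those with a single symbol, where fewer were tested. They became 718 and 849 without a fold threshold, 546 and 489 at 1.2-fold, and 140 and 39 at 1.5-fold. The methods' t-test gave 109 lower calls. Left-out cows gave 271 to 468 higher and 139 to 289 lower calls, the last without Liver_control_819. In the other lists, the count for glycine, sulfur and choline oxidation (1, DAO) was 0 with array weights and at 1.5-fold, and 0 to 2 over the left-out cows (CSAD joined without Liver_control_1041). The count for phenylalanine, tyrosine and tryptophan was 0 to 1 (IDO1, without Liver_GSGME_1001), and for transporters lower with GSGME 0 to 1 (SLC6A12 without Liver_control_1017, Liver_control_819 or Liver_control_1041 or Liver_GSGME_821, SLC38A2 without Liver_control_1031). Among the transcription factors 1, KLF15, was lower without a fold threshold. The cause of these changes was not tested. The mean over several transcripts of a gene was not run, since each gene had 1, nor were 3 planned pairs that involve GLUL or MCCC2. With 6 cows a group, the widest intervals (SDS, KMO, OAT) reach past 2-fold.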

Other observations

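Among all 1081 pairs of the 47 genes, 151 had a permutation p under 0.05 over the 12 cows and none passed Benjamini-Hochberg adjustment, and the median r was 0.09. No share over pairs of all transcripts was set beside this count, so it does not describe these enzymes in particular. The strongest pair besides ASS1 and ASL was SDS with QDPR, the dihydropteridine reductase that serves phenylalanine hydroxylation, chosen after its values were seen. Its r was -0.90 and its rho -0.75 (permutation p = 1.10e-04 and 0.00663, adjusted p = 0.0649 for r). The r was -0.94 within control and -0.85 within GSGME cows, and -0.76 without the 2 cows farthest from the median. QDPR was lowest in Liver_control_1017 (8.17) and Liver_control_1150 (8.38) and Liver_GSGME_821 (8.47), the 3 cows in which SDS was highest.

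The histidine enzymes HAL and AMDHD1 had an r of 0.78 (rho 0.76; permutation p = 0.00374, adjusted p = 0.189), which was 0.72 within control and 0.93 within GSGME cows, while HAL and UROC1, the enzyme between them in the route, had an r of -0.27 (rho -0.25; permutation p = 0.393, adjusted p = 0.458 over 7 pairs). Whether these correlations differ was not tested.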
